A study of Homo sapiens with 4 samples.

Results

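The keratin genes are the 54 lines of the deposited table, among 18840 genes, whose symbol is KRT followed by a number and at most a letter from A to C. Keratin-associated proteins were left out. They were measured by poly(A) RNA sequencing in MCF10A, an immortalised, non-tumorigenic human mammary epithelial line with basal features. The cells carried a pBabe retroviral construct for miR-105, for MYC or for GFP, or the empty pBabe vector, and there was 1 library per construct. All 4 cultures shared a medium based on DMEM/F12, which held cholera toxin, hydrocortisone, EGF, insulin and horse serum. The labels do not say whether any line was a single clone or a pool of infected cells. By type the members comprised 29 type I and 25 type II genes, and by class 3 basal, 7 simple, 18 stratified and 26 hair keratins.

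Keratins form the intermediate filaments of epithelial cells. Each filament is built from pairs of a type I (acidic) and a type II (basic to neutral) chain, and a chain without a partner is normally degraded. In mammary and other stratified epithelia KRT5 pairs with KRT14 or KRT15 in basal cells, KRT7, KRT18 and KRT19 are typical of luminal or simple cells, and KRT6A, KRT6B and KRT6C with KRT16 and KRT17 are induced by wounding and stress. The hair keratins build the hair shaft and its sheaths. Type II genes lie in a cluster on chromosome 12 and type I genes in a cluster on chromosome 17, except KRT18, which lies at the end of the type II cluster. KRT8, the usual partner of KRT18, was not analysed here, so the sums, the type II level and the type II to type I ratios below leave it out.

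Library sizes after recovery of whole reads were 6859698 for miR-105, 9795159 for MYC, 14025115 for GFP and 9138429 for the vector. Levels are in CPM, reads scaled to a common library size with TMM factors. With 1 library per group there was no replicate and no test, and the intervals in brackets are exact 95% intervals that cover counting error only. The gap between the GFP and vector libraries was the only gauge of scatter between cultures. The mRNA of MYC itself stood at 463 CPM in the library labelled miR-105, 232 CPM in the library labelled MYC, 198 CPM in the GFP library and 207 CPM in the vector library. It was thus highest in the library labelled miR-105, and within 1.17-fold of both controls in the library labelled MYC, so it goes against the labels. Whether the labels of these libraries were exchanged was not tested, nor was whether reads of the MYC construct were counted on the MYC line. Every value given with miR-105 or with MYC holds for the library that bears that label. Of 7 epithelial markers all had reads in every library, with sums of 1186, 614, 2260 and 1922 CPM in the miR-105, MYC, GFP and vector libraries. The fibroblast marker COL3A1 and the melanocyte marker TYR were at 0 in all 4 libraries. However, 3 of the 9 fibroblast markers and 2 of the 5 melanocyte markers had a mean of at least 1 CPM. Among these were DCN at 117 CPM in the vector library, and FAP at 126 CPM and MITF at 57.1 CPM in the GFP library.

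Many keratins are close copies, and reads from shared stretches can be assigned to the wrong copy. Sharing was measured over 50-base windows of GENCODE release 29 transcripts (build GRCh38, mRNA strand), while the deposited counts were made on hg19. Over the whole KRT81 transcript, 38.4% of its windows occurred without a mismatch in KRT86, 6.22% in KRT83, 6.06% in KRT85, 1.01% in KRT82, 0.532% in KRT84 and none in KRT7. When up to 2 mismatches were allowed, the shares were 53.8% in KRT86, 43.0% in KRT83, 26.0% in KRT85, 1.86% in KRT82 and 1.12% in KRT84.

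The sequences below are coding windows on the mRNA strand that show how alike relatives can be within a stretch, and thus why single-gene values can be uncertain. The first set is from exon 7 of KRT6A and its relatives, with capitals at bases that differ from KRT6A.
KRT6A: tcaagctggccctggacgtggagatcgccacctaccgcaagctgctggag
KRT6B: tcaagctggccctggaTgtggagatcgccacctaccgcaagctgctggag
KRT6C: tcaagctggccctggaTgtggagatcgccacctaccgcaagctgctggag
KRT3: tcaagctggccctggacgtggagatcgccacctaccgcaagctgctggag
KRT75: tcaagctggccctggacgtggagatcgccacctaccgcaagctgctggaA
KRT79: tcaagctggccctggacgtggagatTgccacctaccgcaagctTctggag
KRT76: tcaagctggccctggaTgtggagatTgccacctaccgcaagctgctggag
KRT5: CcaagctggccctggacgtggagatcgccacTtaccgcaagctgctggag
KRT3 was identical to KRT6A here, and the others differed at 1 or 2 bases. KRT6A shared 28.5% of its windows without a mismatch with KRT6B and 35.2% with KRT6C, and 65.4% and 65.3% when up to 2 mismatches were allowed. KRT5 shared 2.62% of its windows with KRT6A, 3.30% with KRT6B and 3.425% with KRT6C without a mismatch. With up to 2 mismatches these shares were 9.91%, 9.43% and 10.4%, so most KRT5 windows had no such match in any given copy.

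The second set is from exon 1 of type I keratins, with capitals at bases that differ from KRT14.
KRT14: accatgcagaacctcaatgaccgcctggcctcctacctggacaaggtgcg
KRT16: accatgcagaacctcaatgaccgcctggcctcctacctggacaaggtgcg
KRT17: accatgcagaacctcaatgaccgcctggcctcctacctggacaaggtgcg
KRT15: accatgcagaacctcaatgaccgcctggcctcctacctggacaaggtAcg
KRT19: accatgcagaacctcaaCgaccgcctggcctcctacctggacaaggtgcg
KRT14 shared 11.2% of its windows without a mismatch with KRT16 and 0.868% with KRT17, and 27.4% and 12.6% when up to 2 mismatches were allowed. Whether reads of KRT17 were counted on the KRT14 line was not tested. KRT15 shared no window without a mismatch with KRT14, KRT16, KRT17 or KRT19. The sources used here do not give how reads that match several genes were counted. The values of KRT6A, KRT6B and KRT6C, of KRT81, KRT83, KRT85 and KRT86, and of KRT14 and KRT16 are uncertain as single genes, and sums are given for the KRT6 and KRT81 sets.

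**Figure D1:**
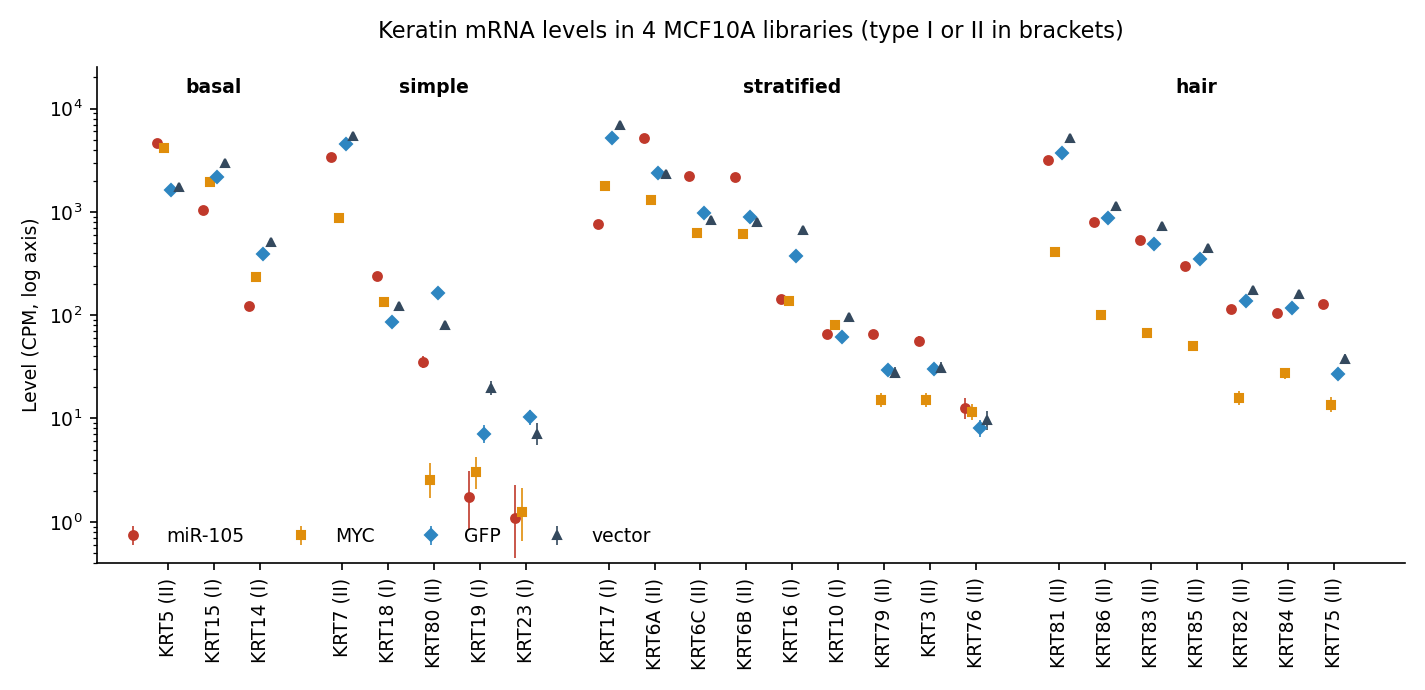
Level of the 24 keratins with at least 10 CPM in at least 1 library, in CPM on a log axis, by class and with the type in brackets. Each symbol is 1 library in the order miR-105, MYC, GFP and vector, and bars are exact Poisson 95% intervals. KRT5 was higher in the miR-105 and MYC libraries (4654 and 4138 CPM) than in the GFP and vector libraries (1614 and 1757 CPM), while the 7 hair keratins lay lowest in the MYC library.

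Only some of the 54 keratins were expressed. A total of 24 reached 10 CPM in at least 1 library, 4 more (KRT4, KRT9, KRT12 and KRT13) peaked between 1 and 10 CPM, and 26 stayed under 1 CPM in every library. Those 26 were 2 simple, 5 stratified and 19 hair keratins, none of them had more than 13 reads in any library, and 6 (KRT26, KRT28, KRT33B, KRT36, KRT37 and KRT38) had no read at all. With 3 reads taken as the floor for a count of 0, such a count allowed a level of up to 0.471 CPM in the miR-105 library, 0.284 CPM in the MYC library, 0.217 CPM in the GFP library and 0.324 CPM in the vector library. All 11 type I hair shaft keratins were among the 26, whereas the 6 type II hair shaft keratins, KRT81 to KRT86, all passed 10 CPM. The hair class was therefore represented by type II chains whose type I hair shaft partners were at or near 0.

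Keratins took 2.35% of all reads in the miR-105 library, 1.35% in the MYC library, 2.42% in the GFP library and 3.09% in the vector library. Their summed level was 25268 CPM in the miR-105 library, 12578 CPM in the MYC library, 24568 CPM in the GFP library and 30498 CPM in the vector library. The miR-105 sum was 1.03-fold higher than in GFP (1.02 to 1.03) and 1.21-fold lower than in the vector library (1.20 to 1.21), which is no wider than the 1.24-fold gap between GFP and the vector. The MYC sum was 1.95-fold lower than GFP (1.94 to 1.97) and 2.42-fold lower than the vector (2.41 to 2.44). In bulk RNA, fewer cells of a kind and less RNA per cell cannot be told apart.

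In the miR-105 library the split between the types differed from the controls more than the total did, while in the MYC library the split lay near the controls and the total was lower. Type I chains gave 9.43% of keratin reads in the miR-105 library, 34.3% in the MYC library, 33.5% in the GFP library and 37.1% in the vector library. Their summed level was 2384 CPM in the miR-105 library and 4317 CPM in the MYC library, against 8226 CPM in GFP and 11326 CPM in the vector library. Type II chains summed to 22884 CPM in the miR-105 library and 8261 CPM in the MYC library, against 16342 CPM in GFP and 19171 CPM in the vector library. The miR-105 library was thus 3.45-fold lower than GFP and 4.75-fold lower than the vector for type I, and 1.40-fold and 1.19-fold higher for type II. Per kilobase of coding length, the summed type II level was 8.02 times the type I level in the miR-105 library, 1.53 times in the MYC library, 1.71 times in GFP and 1.47 times in the vector library.

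**Figure D2:**
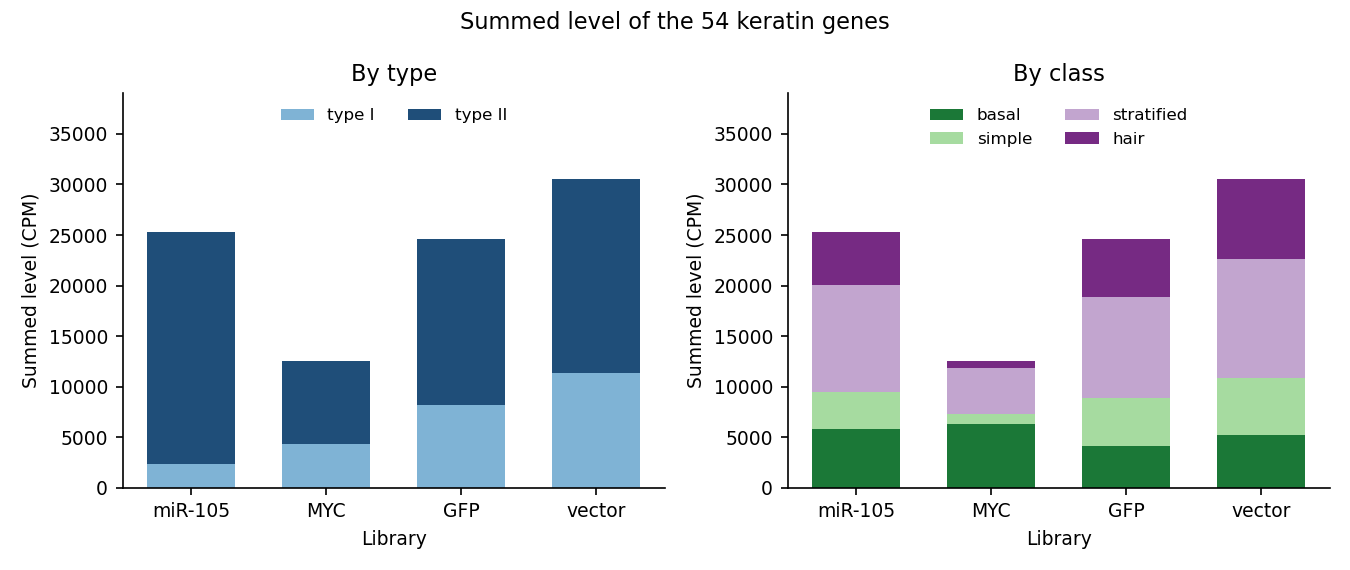
Summed level of the 54 keratins in CPM, stacked by type (left) and by class (right), with 1 bar per library. Type I keratins summed to 2384 CPM in the miR-105 library against 8226 CPM in GFP and 11326 CPM in the vector library, and hair keratins to 686 CPM in the MYC library against 5740.1 and 7909.7 CPM in GFP and the vector.

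Counts of keratins were made among genes whose mean over the libraries reached 1 CPM, and 27 keratins passed that filter. A gene was counted as higher or lower where it differed by 2-fold or more, in the same direction, from the GFP library and from the vector library, on log2 values of CPM plus 0.5. The miR-105 and MYC comparisons share these control libraries. In the miR-105 library 6 of the 27 keratins (22.2%) were counted higher, beside 14.7% of all genes compared, and 9 (33.3%) lower, beside 16.6% of all genes. Those higher were type II without exception (KRT5, KRT6A, KRT6B, KRT6C, KRT75 and KRT79). Those lower were 8 of the 10 type I keratins that passed (KRT12, KRT13, KRT14, KRT15, KRT16, KRT17, KRT19 and KRT23) and the type II keratin KRT80. KRT12 passed the filter only through the control libraries, where it was higher, and KRT13 and KRT23 had 2 and 7 reads in the miR-105 library. When a mean of at least 5 CPM was required, 6 keratins were counted lower there, without KRT12, KRT13 and KRT23. In the MYC library 1 keratin, KRT5, was counted higher (3.70%, beside 9.03% of all genes) and 12 (44.4%, beside 10.4% of all genes) were counted lower. Between GFP and the vector, 1 keratin (KRT80) was at least 2-fold higher in GFP, beside 3.06% of all genes, and 1 (KRT19) at least 2-fold lower, beside 1.03%.

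The median log2 fold over the 27 keratins was -0.22 in the miR-105 library against GFP and -0.59 against the vector, where all 12484 genes had medians of -0.03 and 0.05. In the 10 type I keratins it was -1.69 and -2.13, and in the 17 type II keratins 0.12 and -0.46. The MYC library had a keratin median of -0.99 against GFP and -1.13 against the vector, beside -0.0035 and 0.05 for all genes. Its hair keratins had medians of -2.86 and -3.42 over the 7 that passed. The controls also differed: the keratin median of GFP against the vector was -0.36, beside 0.03 for all genes, and 18 of the 24 keratins above 10 CPM were lower in GFP than in the vector library, beside 47.1% of all genes compared.

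The basal keratins came apart from each other. KRT5, the type II chain of basal cells, had 4654 CPM in the miR-105 library and 4138 CPM in the MYC library, against 1614 CPM in GFP and 1757 CPM in the vector library. Both construct libraries lay above both controls, which differed from each other by 1.09-fold. The miR-105 level was 2.88-fold (2.83 to 2.93) the GFP level and 2.65-fold (2.60 to 2.70) the vector level, and the MYC level was 2.56-fold (2.52 to 2.61) and 2.36-fold (2.31 to 2.40). The gene lies on the minus strand of chromosome 12 at chr12:52514575-52520687 in GRCh38.

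KRT14, the classical basal partner of KRT5, was lower in both construct libraries. It had 124 CPM in the miR-105 library and 234 CPM in the MYC library, against 387 CPM in GFP and 511 CPM in the vector library. That is 3.12-fold lower than GFP (2.90 to 3.37) and 4.12-fold lower than the vector (3.82 to 4.45) with miR-105, and 1.66-fold and 2.19-fold lower with MYC, which was not enough to be counted. KRT15, another basal partner that also marks hair follicle stem cells, had 1039 CPM in the miR-105 library and 1947 CPM in the MYC library, against 2157 CPM in GFP and 2970.5 CPM in the vector library. It was 2.08-fold and 2.86-fold lower with miR-105, and 1.11-fold and 1.53-fold lower with MYC, where the GFP to vector gap was itself 1.38-fold. Per kilobase of coding length, KRT5 was 3.10 times the sum of KRT14 and KRT15 in the miR-105 library and 1.47 times in the MYC library, but 0.493 times in GFP and 0.392 times in the vector library. Basal keratins made up 50.2% of keratin reads in the MYC library, against 16.9% in GFP and 17.2% in the vector library, and 23.0% in the miR-105 library. Their summed level differed much less, at 6319 CPM with MYC and 5817 CPM with miR-105, against 4158 CPM in GFP and 5238 CPM in the vector library. The MYC sum was 1.52-fold the GFP sum and 1.21-fold the vector sum, and the controls were 1.26-fold apart. The share in the MYC library thus also reflects its lower total of keratins.

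**Figure D3:**
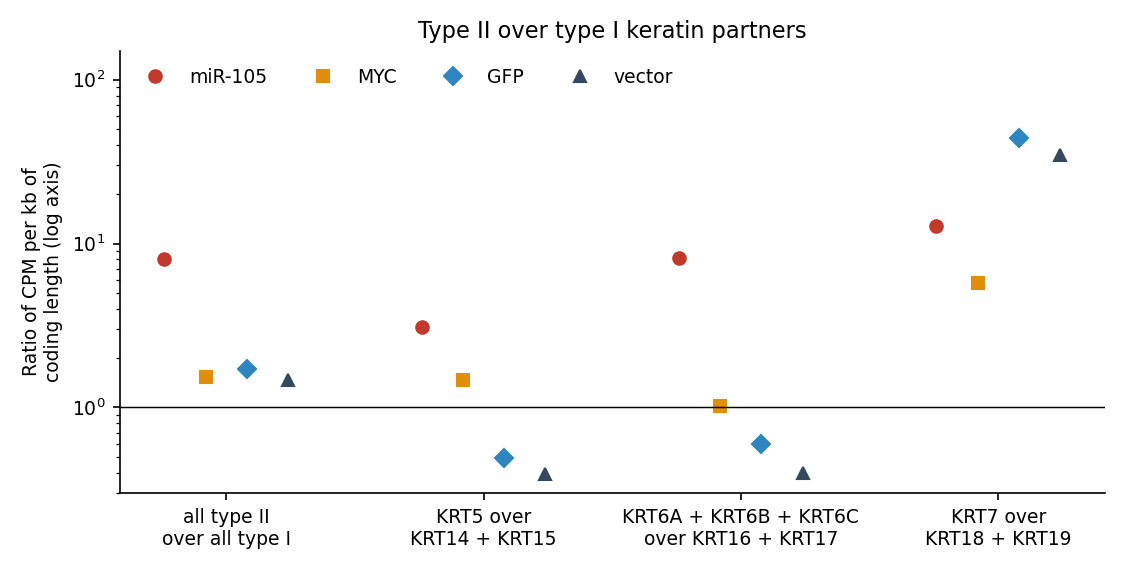
Ratio of type II to type I keratin levels, in CPM per kilobase of coding length on a log axis, for all keratins and for sets of customary partners, with 1 symbol per library and no error bars. The line marks equal levels. KRT5 stood at 3.10 and 1.47 times its type I partners in the miR-105 and MYC libraries and at 0.493 and 0.392 times in GFP and the vector.

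The stress-inducible keratins parted by type in the miR-105 library. KRT6A had 5135 CPM in the miR-105 library and 1294 CPM in the MYC library, against 2399 CPM in GFP and 2304 CPM in the vector library. It was the most abundant keratin per kilobase of coding length in the miR-105 library (3035 CPM per kb) and had rank 4 among all genes there by CPM. Its close copies moved with it: KRT6B had 2167 CPM with miR-105 and 605 CPM with MYC, against 889.9 CPM in GFP and 797 CPM in the vector library, and KRT6C had 2215 and 630.1 CPM against 972 and 836 CPM. Summed over these copies, the miR-105 level was 2.23-fold the GFP level (2.21 to 2.26) and 2.42-fold the vector level (2.39 to 2.45), and the MYC level was 1.68-fold and 1.56-fold lower. The controls were within 1.08-fold of each other.

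KRT17, a type I partner of KRT6 and the most abundant keratin per kilobase in both controls, was low in both construct libraries. It had 766 CPM with miR-105 and 1777 CPM with MYC, against 5131 CPM in GFP and 6927 CPM in the vector library. The miR-105 library was 6.70-fold below GFP (6.51 to 6.90) and 9.04-fold below the vector (8.78 to 9.31), and the MYC library 2.89-fold and 3.899-fold below. KRT16, the other stress-inducible type I chain, had 143 CPM with miR-105 and 137 CPM with MYC, against 378 CPM in GFP and 666 CPM in the vector library. Its construct libraries were within 1.04-fold of each other and 2.64-fold to 4.86-fold below the controls, which were 1.76-fold apart. KRT6A, KRT6B and KRT6C together stood at 8.13 times KRT16 and KRT17 per kilobase in the miR-105 library and 1.02 times in the MYC library, against 0.596 times in GFP and 0.400 times in the vector library.

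The simple keratins summed to 3662 CPM with miR-105 and 1004 CPM with MYC, against 4764 CPM in GFP and 5646 CPM in the vector library. The MYC sum was 4.74-fold lower than GFP (4.65 to 4.84) and 5.62-fold lower than the vector (5.51 to 5.74). There 4 of the 5 that passed were counted lower (KRT7, KRT80, KRT19 and KRT23), beside 10.4% of all genes. In the miR-105 library 3 of the 5 were counted lower (KRT80, KRT19 and KRT23), beside 16.6% of all genes, and the sum was 1.30-fold and 1.54-fold lower. KRT19 and KRT23 had only 11 and 7 reads in the miR-105 library. KRT18 was not counted in either library. KRT80 and KRT23 were placed in this class as other non-stratified keratins, and KRT7, KRT18 and KRT19 as keratins of simple epithelium. KRT7, a type II chain of glandular ducts, had 3383 CPM with miR-105 and 862 CPM with MYC, against 4496 CPM in GFP and 5416 CPM in the vector library. The MYC library was 5.21-fold lower than GFP (5.10 to 5.33) and 6.28-fold lower than the vector (6.14 to 6.42), while the miR-105 library was 1.33-fold and 1.60-fold lower and was not counted. KRT7 exceeded KRT5 per kilobase in both controls, at a KRT5 to KRT7 ratio of 0.285 in GFP and 0.258 in the vector library. The order was turned round in the MYC library, at 3.82, and nearly even in the miR-105 library, at 1.09.

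KRT18, the widespread simple type I chain, had 240.4 CPM with miR-105 and 135 CPM with MYC, against 86.5 CPM in GFP and 122 CPM in the vector library. It was the only type I keratin above 10 CPM that was higher in the miR-105 library than in both controls, by 2.78-fold (2.58 to 3.002) and 1.97-fold (1.82 to 2.13), just short of the threshold against the vector. In the annotation KRT18 shares 135 exon bases with KRT8 on the opposite strand, and the sources used here do not give the strand setting of the counting, so its value is uncertain. KRT19, a luminal keratin, was scarce, with 1.73 CPM from 11 reads with miR-105 and 3.03 CPM from 32 reads with MYC, against 7.15 CPM in GFP and 19.8 CPM in the vector library. Its controls were 2.77-fold apart (2.15 to 3.57), so its fold with miR-105 depended on the control, at 4.15-fold lower than GFP (2.22 to 8.57) and 11.5-fold lower than the vector (6.26 to 23.4). KRT23, a little studied type I chain, had 1.10 CPM with miR-105 and 1.23 CPM with MYC, against 10.3 CPM in GFP and 7.14 CPM in the vector library, so both construct libraries lay below both controls. Per kilobase, KRT7 was 12.8 times the sum of KRT18 and KRT19 in the miR-105 library and 5.74 times in the MYC library, against 43.8 times in GFP and 34.6 times in the vector library.

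KRT80, a type II keratin of differentiating epithelia that lies near desmosomes, had the widest spread of any keratin above 10 CPM. It had 35.4 CPM with miR-105 and 2.56 CPM with MYC, against 163 CPM in GFP and 80.6 CPM in the vector library. The MYC level rested on 27 reads and was 63.7-fold below GFP (43.7 to 96.9) and 31.5-fold below the vector (21.5 to 48.1). The miR-105 level was 4.602-fold and 2.28-fold lower, and GFP was 2.02-fold higher than the vector.

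The hair keratins were low in the MYC library as a group. KRT81, a type II keratin of the hair cortex, had 3182 CPM with miR-105 and 411 CPM with MYC, against 3749 CPM in GFP and 5222 CPM in the vector library. The MYC level was 9.13-fold below GFP (8.85 to 9.42) and 12.7-fold below the vector (12.3 to 13.1). The miR-105 level was only 1.18-fold and 1.64-fold lower, and GFP was 1.39-fold below the vector. In the controls KRT81 ranked among the 10 most abundant of all genes by CPM, with rank 9 in GFP and rank 7 in the vector library.

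The other hair shaft keratins followed KRT81. KRT86, also of the cortex, had 802 CPM with miR-105 and 100.2 CPM with MYC, against 871 CPM in GFP and 1140.2 CPM in the vector library. KRT83, another cortex keratin, had 529 CPM with miR-105 and 66.6 CPM with MYC, against 486 CPM in GFP and 729 CPM in the vector library. KRT85, of the hair matrix and cuticle, had 297 CPM with miR-105 and 49.96 CPM with MYC, against 347 CPM in GFP and 444 CPM in the vector library. All of these lay lowest in the MYC library, 6.94-fold to 11.4-fold below the controls. Less abundant were KRT82, a cuticle keratin, with 115 and 15.8 CPM in the miR-105 and MYC libraries against 138 CPM in GFP and 174 CPM in the vector library, and KRT84, a keratin of the tongue papillae, with 105 and 27.3 CPM against 118 and 159.8 CPM. The MYC levels of KRT82 were 8.71-fold and 11.0-fold lower and those of KRT84 4.32-fold and 5.85-fold lower. Summed over KRT81, KRT83, KRT85 and KRT86, the genes with the most shared sequence, the MYC library stood at 627 CPM, 8.69-fold below GFP at 5454 CPM (8.48 to 8.92) and 12.01-fold below the vector at 7535 CPM (11.7 to 12.3).

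The proportions of hair keratins to KRT81 varied far less than their levels. KRT82 had 3.63% of the KRT81 reads in the miR-105 library, 3.86% in MYC, 3.68% in GFP and 3.34% in the vector library, although KRT81 itself ranged from 411 to 5222 CPM. KRT86 had 25.2%, 24.4%, 23.2% and 21.8% of the KRT81 reads in the same order, with the miR-105 interval (24.4 to 26.0) above that of the vector (21.4 to 22.3). KRT83 had 16.6% (16.0 to 17.2), 16.2%, 12.98% and 13.96%, so the miR-105 library lay above both controls. KRT84 was further apart, with 6.65% (5.88 to 7.495) in the MYC library against 3.15% in GFP and 3.06% in the vector library, as was KRT85, with 12.2% (11.1 to 13.3) against 9.25% and 8.51%. KRT7, which shares no identical 50-base window with KRT81, had 210.0% of the KRT81 reads in the MYC library and between 104% and 119.9% in the others. Whether reads of KRT81 were counted on the lines of its relatives was not tested.

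**Figure D4:**
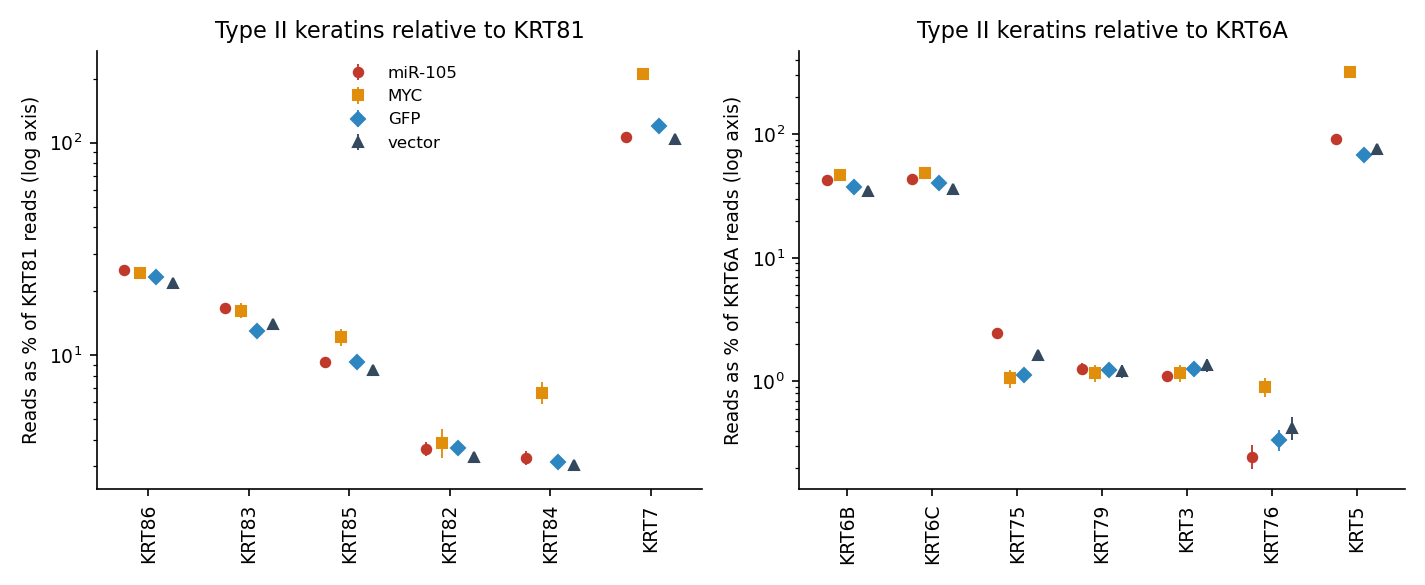
Reads of type II keratins as a percentage of the reads of KRT81 (left) or KRT6A (right) in the same library, on log axes, with exact 95% intervals as bars and 1 symbol per library. KRT82 stayed between 3.34% and 3.86% of KRT81, and KRT79 between 1.17% and 1.27% of KRT6A, while KRT5 stood at 319.9% of KRT6A in the MYC library and at 90.6% or less in the others.

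Near KRT6A the proportions also varied less for some relatives than for others. The closest copies did not hold theirs: KRT6B had 42.2% of the KRT6A reads with miR-105 and 46.8% with MYC, against 37.1% in GFP and 34.6% in the vector library, and KRT6C 43.1% and 48.7% against 40.5% and 36.3%. KRT79, a keratin of the follicle opening, had 65.1 CPM with miR-105 and 15.1 CPM with MYC, against 29.5 CPM in GFP and 27.8 CPM in the vector library, which was 1.27%, 1.17%, 1.23% and 1.21% of the KRT6A reads. KRT3, a keratin of the cornea, had 56.5 and 15.1 CPM with miR-105 and MYC, against 30.3 and 31.1 CPM in GFP and the vector, or 1.10%, 1.17%, 1.26% and 1.35% of the KRT6A reads. Identical windows made up 0.221% of KRT6A for KRT79 and 0.973% for KRT3. Whether these lines held reads of KRT6A was not tested. The cornea partner of KRT3, KRT12, had at most 2.24 CPM.

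KRT75, a keratin of the companion layer of the hair follicle, moved in the same directions as the KRT6 set, with wider gaps from both controls. It had 127 CPM with miR-105 and 13.7 CPM with MYC, against 27.1 CPM in GFP and 37.5 CPM in the vector library. It was 4.68-fold (4.14 to 5.31) and 3.38-fold (2.98 to 3.85) higher with miR-105, the widest gap upwards among the keratins above 10 CPM there. KRT75 shared no identical window with KRT6A. When up to 2 mismatches were allowed, 3.98% of KRT6A windows matched KRT75, beside 3.27% for KRT79 and 3.23% for KRT3. Its MYC level was 1.98-fold and 2.75-fold lower and was not counted. KRT76, an oral keratin, stayed between 8.02 and 12.5 CPM, and KRT10, the suprabasal type I chain of the epidermis, between 61.7 and 95.5 CPM, so neither was counted in any comparison.

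Among the 4 keratins that peaked between 1 and 10 CPM, KRT13, a mucosal type I chain, had 0.314 CPM from 2 reads with miR-105 and 2.56 CPM with MYC, against 2.53 CPM in GFP and 3.35 CPM in the vector library. Its mucosal partner KRT4 had 0.941 CPM with miR-105 and 1.80 CPM with MYC, against 2.09 CPM in GFP and 3.68 CPM in the vector library. KRT12 had 0.314 CPM with miR-105 and 0.474 CPM with MYC, against 2.24 CPM in GFP and 1.41 CPM in the vector library. KRT9, a keratin of palms and soles, had 1.41 CPM with miR-105 and 0 reads with MYC, against 0.217 and 0.757 CPM in GFP and the vector. All of these rest on 35 reads or fewer.

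Read along chromosome 12, the type II folds changed at a boundary. The first 8 genes in order, KRT80, KRT7, KRT86, KRT81, KRT83, KRT85, KRT84 and KRT82, were each counted lower in the MYC library. The next genes, KRT75, KRT6B, KRT6C and KRT6A, were 1.32-fold to 2.75-fold lower there without being counted, and KRT5, at rank 13 in the order, was higher. In the miR-105 library the first 8 were lower than both controls, except KRT83, which was 1.09-fold above GFP, and the 5 genes from KRT75 to KRT5 were each at least 2-fold higher than both controls. The next 7 genes, from KRT71 to KRT77, were under 1 CPM in every library. KRT76 was 1.44-fold and 1.20-fold higher with MYC than in GFP and the vector, and 1.56-fold and 1.30-fold higher with miR-105. Beyond it KRT3 was 2.01-fold and 2.07-fold lower with MYC and 1.86-fold and 1.81-fold higher with miR-105, and KRT79, counted higher with miR-105, was 2.20-fold and 2.34-fold higher there and 1.84-fold below the vector with MYC. KRT4, between them, had fewer than 4 CPM and KRT78 fewer than 1 CPM. The parts of position and of shared sequence in these folds were not tested. On chromosome 17 no such order appeared: KRT10 was close to the controls, and the genes from KRT23 to KRT17 above 10 CPM were lower with miR-105.

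**Figure D5:**
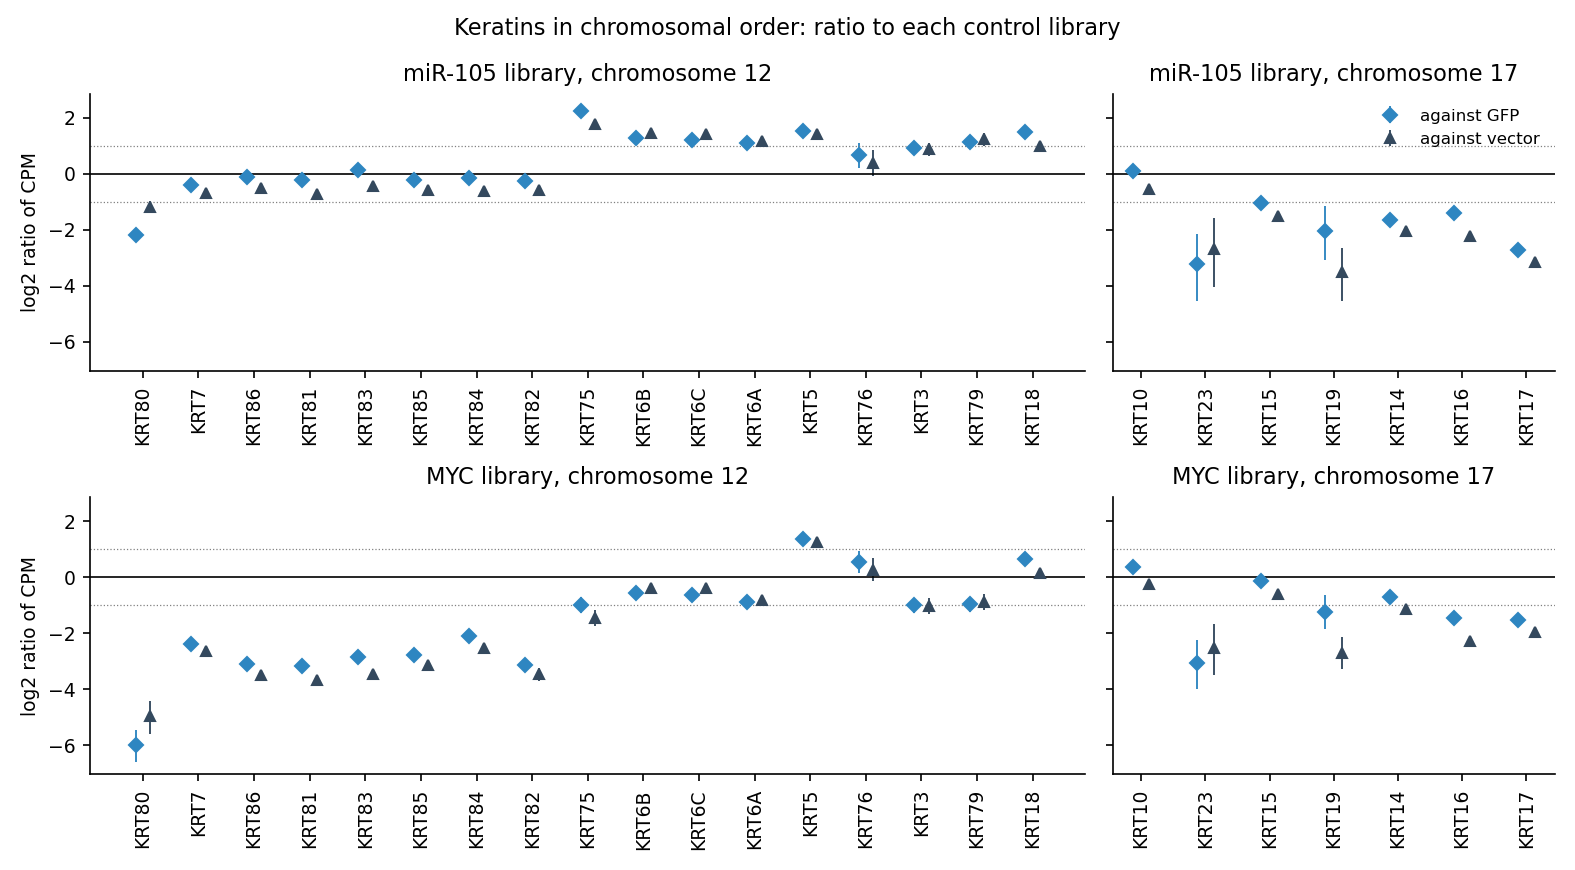
Log2 ratio of CPM to the GFP (diamonds) and vector (triangles) libraries for the 24 keratins above 10 CPM, in order along chromosome 12 (left) and 17 (right), for the miR-105 library (above) and the MYC library (below). Bars are exact 95% intervals and dotted lines mark 2-fold. From KRT80 to KRT82 the MYC points lay between 63.7-fold and 4.32-fold below the controls, and from KRT75 to KRT5 the miR-105 points lay between 2.14-fold and 4.68-fold above them.

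Set directly against each other, the miR-105 and MYC libraries differed most in type II keratins. In the miR-105 library 14 of the 27 keratins were at least 2-fold higher than in the MYC library (51.9%, beside 19.0% of all genes), and 2 at least 2-fold lower (7.41%, beside 19.8%). The 14 were type II genes: KRT3, KRT6A, KRT6B, KRT6C, KRT7, KRT75, KRT79, KRT80 and KRT81 to KRT86. KRT80 was 13.8-fold higher (9.27 to 21.5), KRT75 9.29-fold (7.78 to 11.2) and KRT86 8.002-fold (7.49 to 8.56). The 2 lower ones were KRT17, 2.32-fold (2.25 to 2.39), and KRT13. KRT5, KRT16 and KRT76 were within 1.12-fold of each other in these libraries.

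The seed of miR-105 was searched for in the keratin 3′ untranslated regions. MicroRNAs pair with target mRNAs mainly through bases 2 to 8, given in capitals in the mature sequences from RefSeq (GRCh38.p14).
hsa-miR-105-5p: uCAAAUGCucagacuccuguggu
hsa-miR-105-3p: aCGGAUGUuugagcaugugcua
Sites were read on the mRNA strand only, in GENCODE release 29. The letters GCATTTG, complementary to the 5p seed, occurred in the 3′ untranslated region of 2 of 54 keratins, KRT1 and KRT35, beside 13.4% of 18875 genes. Both were under 1 CPM in every library. The letters ACATCCG, for the 3p seed, occurred in none of the 54, beside 1.29% of genes. The 9 keratins counted lower in the miR-105 library had neither set of letters in the regions searched. Only exact matches to the whole seed were sought, in a single transcript per gene. Shorter sites, coding sites and other transcripts were left out, and the share of all genes was not matched for length. Whether miR-105 acts on any keratin mRNA was not tested.

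Genes that act on keratins were taken from lists chosen with earlier results of these data known. Of the 21 regulators of keratin genes that passed, out of 23, none was counted higher in the miR-105 library (14.7% of all genes) and 7 were lower (16.6% of all genes), among them ELF3, an epithelial ETS factor, with 46.3 CPM with miR-105 and 302 CPM with MYC, against 510.1 CPM in GFP and 561 CPM in the vector library. In the MYC library 2 were higher and 7 lower, beside 9.03% and 10.4% of all genes. The higher ones were CEBPA, at 10.9 CPM against 2.38 and 2.05 CPM in GFP and the vector, and TP63, the factor of basal epithelial identity that activates KRT5 and KRT14, at 77.2 CPM against 14.4 CPM in GFP and 7.14 CPM in the vector library. TP63 stood at 6.12 CPM in the miR-105 library, where KRT5 was within 1.12-fold of its level in the MYC library. Lowest against the controls in the MYC library was GRHL2, a grainyhead factor of epithelial identity, which had 0 reads there, against 155 CPM in GFP and 113 CPM in the vector library, or at least 547-fold and 398-fold lower against a floor of 3 reads. It had 101 CPM in the miR-105 library. Also lower with MYC were GRHL1, at 2.28 CPM against 42.9 and 23.6 CPM, OVOL2, at 5.97 CPM against 52.2 and 68.9 CPM, and OVOL1, at 0.379 CPM against 7.51 and 6.05 CPM. Whether these factors bear on the keratin levels was not tested.

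Among 15 genes of other intermediate filaments 7 passed. The nuclear lamin LMNB1 had 252 CPM with miR-105 and 10.6 CPM with MYC, against 4.48 CPM in GFP and 3.68 CPM in the vector library, and LMNB2 had 559 and 84.9 CPM against 53.7 and 43.7 CPM. VIM, the filament protein of mesenchymal and some basal cells, had 128 CPM with miR-105 and 731 CPM with MYC, against 9.97 CPM in GFP and 66.2 CPM in the vector library. The MYC level was 73.4-fold the GFP level and 11.1-fold the vector level, and the controls were themselves 6.64-fold apart. In all, 4 of the 7 were counted higher and none lower in the miR-105 library (SYNM, LMNA, LMNB1 and LMNB2), and in the MYC library 3 were higher (VIM, LMNB1 and BFSP1) and 1 lower, PRPH, at 8.25 CPM against 40.5 CPM in GFP and 68.0 CPM in the vector library. Of all genes, 14.7% were counted higher and 16.6% lower with miR-105, and 9.03% higher and 10.4% lower with MYC.

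Of 10 plakins and desmosome linkers, which fasten keratins to junctions, 1 was lower in the miR-105 library (16.6% of all genes) and none higher (14.7%). This was PPL, periplakin, at 56.9 CPM with miR-105 and 379.6 CPM with MYC, against 966 CPM in GFP and 861 CPM in the vector library. In the MYC library PPL, EVPL and PLEC were lower (10.4% of all genes) and PKP1 higher (9.03%), the last from 48 reads against 0 in GFP and 2 in the vector library. Of 6 hemidesmosome genes, which fix basal keratins to the matrix, ITGA6 was higher with miR-105, at 918 CPM against 170.0 CPM in GFP and 105 CPM in the vector library, while its partner ITGB4 was 2.62-fold and 2.63-fold lower. Of 12 turnover and modification genes that passed, 3 were higher (TCHP, PRMT1 and SFN) and 3 lower (TRIM29, TGM1 and TGM2) with miR-105, beside 14.7% and 16.6% of all genes. With MYC 3 were lower (FBF1, TGM1 and TGM2) and none higher, beside 10.4% and 9.03%. TGM2, a transglutaminase that crosslinks proteins, had 28.4 CPM with miR-105 and 3.51 CPM with MYC, against 159 CPM in GFP and 105 CPM in the vector library. TGM1, the transglutaminase of the cornified envelope, had 14.7 and 33.8 CPM with miR-105 and MYC, against 105 CPM in GFP and 139.8 CPM in the vector library.

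Markers of other cells moved with the libraries as well. The epithelial marker CDH1 had 368 CPM with miR-105 and 183 CPM with MYC, against 768 CPM in GFP and 549 CPM in the vector library, and RAB25 had 48.0 and 3.13 CPM against 96.3 and 133 CPM. EPCAM went the other way, with 66.5 and 55.9 CPM against 36.8 and 33.5 CPM. With miR-105, ESRP1 (254 CPM against 231 and 191 CPM) and ESRP2 (99.9 CPM against 89.3 and 62.9 CPM) were also above both controls. With MYC, ESRP1 was below both at 116 CPM, and ESRP2 between them at 81.2 CPM. In the MYC library 4 of the 7 epithelial markers were counted lower (10.4% of all genes), and 2 of 7 in the miR-105 library (16.6% of all genes). Summed fibroblast markers came to 118 CPM in the miR-105 library, 161 CPM in the MYC library, 211 CPM in GFP and 216 CPM in the vector library. Endothelial markers summed to 3.61, 92.2, 49.6 and 46.8 CPM in the same order, immune markers to 39.4, 20.4, 88.9 and 86.6 CPM, melanocyte markers to 19.6, 10.3, 61.5 and 53.4 CPM, and luminal hormone receptor markers to 20.5, 3.03, 12.1 and 10.8 CPM. Within these lists the fibroblast markers DCN and FAP parted, with 16.0 and 141 CPM for DCN in the miR-105 and MYC libraries against 69.4 and 117 CPM in GFP and the vector, and 90.2 and 2.56 CPM for FAP against 126 and 85.0 CPM. The endothelial markers KDR and PECAM1 were at 1.73 CPM each in the miR-105 library and at 88.9 and 2.46 CPM in the MYC library, against 33.0 and 15.9 CPM in GFP and 32.6 and 12.8 CPM in the vector library. In the MYC library CSF1R stood at 9.86 CPM, MITF at 8.25 CPM and ESR1 at 0.474 CPM, against 75.1, 57.1 and 7.87 CPM in GFP and 66.3, 50.4 and 6.49 CPM in the vector library. The part of these markers in the keratin levels was not tested.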

How the data were processed

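Poly(A) RNA of 4 MCF10A lines (1 library each) was sequenced. Per the submitters' processing notes, TopHat2, edgeR and hg19 were used, with no versions. The sources used here do not give the read counter, the gene annotation or the strand setting. The deposited values are a depth-adjusted signal per gene, of the form of edgeR pseudo-counts, not the raw counts the planned design assumed. Inverting that adjustment (common dispersion 0.0553, vector and GFP as 1 group) gave whole reads for 100% of values (tolerance 1e-05), and on simulated counts it returned the exact reads for 100% of 18840 genes in each library. Of 18859 lines, 19 repeats were dropped.

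CPM came from the reads and TMM factors (miR-105 0.929, MYC 1.08, GFP 0.987, vector 1.01) with edgeR 4.0.16 in R 4.3.3, and intervals from scipy 1.17.1 in Python 3.11.15. Folds are CPM ratios. Counts used log2(CPM + 0.5), a mean of at least 1 CPM and 2-fold from both controls, and adding 0.5 understates the change of low genes. Levels of different genes were compared per kilobase of GENCODE release 29 coding length. No test was run, since there was 1 library per group, and the intervals assume that reads are independent molecules, which reads without molecular identifiers are not. Keratins with at least 10 CPM in 1 library were described singly, and list genes were named where at least 4-fold from both controls, at most 4 per list. The other named list genes were chosen after their values were seen. Members, classes and lists were chosen with earlier results of these data known. A listed gene and a set of sequences are not reported here.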

Additional observations from a re-analysis of the deposited data

How the results depend on the processing

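The folds of 24 keratins were recomputed under 7 other settings (scaling, pseudocount and control), 336 values in all. No fold of the 26 counted combinations of keratin and library changed sign. Counted genes lay at least 2-fold from both controls in the same direction, so a change of control or pseudocount could not turn a sign. The settings that changed the scaling moved the medians of all genes by far less than 2-fold, so a turned sign was hardly possible there either. The lack of sign changes therefore says little about how firm the folds are. Of 62 recomputed counts of keratins, 54 were within 1.5 times the reported count. These include the count lower in the miR-105 library, which fell from 9 to 6 at a mean of at least 5 CPM. At a 3-fold threshold 1 keratin was higher and 5 lower in the miR-105 library, in place of 6 and 9, and 0 higher in the MYC library, in place of 1. Between GFP and the vector the count of 2 became 1 with library totals, with median-of-ratios size factors and with the values as deposited, 5 at 1.5-fold and 0 at 3-fold. The summed keratin level (log2, mean against both controls) was -0.12 in the miR-105 library, and -0.22 with library totals, -0.14 with median-of-ratios size factors, -0.22 with the values as deposited and -0.27 against the vector alone, but 0.0405, the opposite sign, against GFP alone. In the MYC library it was -1.12, and -1.01 with library totals, -1.01 with the values as deposited, -1.28 against the vector alone and -0.97 against GFP alone. The cause of these shifts was not tested beyond the construction of each setting. Library totals moved the median of all genes to -0.09 with miR-105 and 0.14 with MYC, against 0.01 and 0.04 with TMM factors. No paired analysis was possible because each group had 1 library. Counting error limits KRT19, KRT23 and the 4 keratins under 10 CPM most, and 1 library per construct limits all results, since scatter between cultures could be gauged only from GFP against the vector.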
